A study of Mus musculus with 4 samples.

Results

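Markers of Purkinje cells and of GABAergic neurons were read in 4 mouse cerebellar tumors. The list held 9 genes, Calb1, Pcp2, Pcp4, Car8, Gad1, Gad2, Itpr1, Pvalb and Calb2, and every probe set that the platform annotation gives to a single one of them was used, with no filter on its mean signal. That gave 16 probe sets of 8 genes, of 24679 single-symbol probe sets of 13320 genes in the table. No single-symbol probe set of Itpr1 was in the table, so this receptor was not analysed here. All 4 tumors carry the genotype Chd7-het in their titles, came from mice of a mixed CD1xC57BL/6 background and form 1 group. They are called tumors 1, 2, 4 and 5 after the numbers in the titles, with 1 Affymetrix array per tumor. The labels name no Cre line, no second allele or agent, no age and no sex, and the series has neither untransformed cerebellum nor tumors of a second genotype. Each tumor was therefore compared with its 3 companions, and the genotype itself was not compared with anything.

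Purkinje cells are the GABAergic output neurons of the cerebellar cortex. They buffer and release calcium through calbindin, parvalbumin and the IP3 receptor Itpr1, and Car8 binds that receptor and lowers its affinity for IP3. Pcp2 is a modulator of G protein signalling made mainly by Purkinje cells and by bipolar cells of the retina, and Pcp4 is a small regulator of calmodulin. Gad1 and Gad2 encode the enzymes GAD67 and GAD65, which make GABA from glutamate, and serve in inhibitory interneurons as well as in Purkinje cells. Parvalbumin is also made by molecular layer interneurons and by fast skeletal muscle, and calretinin, the product of Calb2, by granule cells and unipolar brush cells, so no gene of the list marks 1 cell type in every tissue.

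Start regions are shown for 3 members, those in which a motif capitalised below was found. As the values below show, they were highest in the same tumor, as was every other measured member. RefSeq promoters (GRCm38.p6, 250 bases before to 50 after a start) were found for 5 of the 9 genes, Pcp2, Pcp4, Gad1, Gad2 and Pvalb, in 9 windows. Those of Pcp2, at the outermost of its starts, of Pcp4 and of Gad1 read as follows, 5′ to 3′ on the gene's strand, with 3 motifs on either strand in capitals, namely AGGTCA, then the homeodomain core TAATTA, then the TATA box TATAAA.
Pcp2, chr8:3625498-3625797, minus strand: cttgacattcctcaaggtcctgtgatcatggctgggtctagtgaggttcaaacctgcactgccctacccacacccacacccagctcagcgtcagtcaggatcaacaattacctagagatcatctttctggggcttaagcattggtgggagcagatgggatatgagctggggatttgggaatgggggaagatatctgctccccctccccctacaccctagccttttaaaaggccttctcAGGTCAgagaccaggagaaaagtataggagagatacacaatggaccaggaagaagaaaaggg
Pcp4, chr16:96467356-96467655, plus strand: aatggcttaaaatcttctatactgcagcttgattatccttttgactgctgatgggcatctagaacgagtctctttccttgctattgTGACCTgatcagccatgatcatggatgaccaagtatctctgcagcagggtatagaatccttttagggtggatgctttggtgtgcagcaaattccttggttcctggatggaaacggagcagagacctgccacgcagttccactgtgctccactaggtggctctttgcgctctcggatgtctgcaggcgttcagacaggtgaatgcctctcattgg
Gad1, chr2:70561879-70562178, plus strand: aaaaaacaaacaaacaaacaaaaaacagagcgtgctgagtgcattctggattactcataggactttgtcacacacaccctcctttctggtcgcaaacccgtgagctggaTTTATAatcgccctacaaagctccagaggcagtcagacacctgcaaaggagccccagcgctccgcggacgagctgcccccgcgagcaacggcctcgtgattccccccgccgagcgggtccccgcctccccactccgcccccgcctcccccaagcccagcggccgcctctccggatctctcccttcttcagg
AGGTCA is the core site bound by nuclear receptors such as Rora, which Purkinje cells need to mature. It lay in 4 of the 9 windows, 3 of Pcp2 and 1 of Pcp4, and in 16.3% of the 32851 promoters of this length. Of the 3 Pcp2 windows, 2 overlap and hold the same site, so the windows are not independent. By gene, AGGTCA lay in 2 of 5. In Pcp2 it began 12 bases before the start, and in Pcp4 it lay on the other strand. TATAAA lay in 2 of the 9 windows, 1 of Gad1 and 1 at an inner start of Pcp2, and in 13.6% of all promoters, and TAATTA in 1 of the 9, at that inner Pcp2 start, and in 5.29% of all. The E-box CANNTG, left in lower case, lay in 8 of the 9 windows and in 72.3% of all promoters. These are matches of letters in a window, and binding was not measured.

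Signals are MAS5 values on the log2 scale. A floor of 5.12, or 34.9 on the linear scale, was set at the median over arrays of the 40th percentile of each array, since MAS5 signals below it are noisy on the log scale and the table holds no detection calls. In tumor 1, 13 of the 16 member probe sets lay above this floor. In tumors 2, 4 and 5, the numbers were 4, 7 and 4. Of all probe sets in the table, 61.3% lay above it in tumor 1, 60.8% in tumor 2, 59.2% in tumor 4 and 59.1% in tumor 5. The 3 probe sets at or below it in every tumor were both of Gad2 and 1 of Pcp2, so Gad2 is the measured gene with no signal above the floor in any tumor. In bulk tissue, fewer cells of a type and less RNA per cell cannot be told apart.

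Among the calcium-binding proteins, calbindin showed the widest spread. The brightest probe set of Calb1, 1417504_at, read 9.45 in tumor 1, 3.89 in tumor 2, 6.02 in tumor 4 and 4.60 in tumor 5 on the log2 scale. Tumor 1 lay far above the rest, tumor 4 was the only other tumor above the floor, and the gap from tumor 1 to tumor 4 was 10.8-fold. The other probe sets of Calb1 were dim. 1448738_at read 5.21, 1.26, 2.23 and 2.07 in tumors 1, 2, 4 and 5, and 1456934_at read 5.44, 0, 2.91 and 0.85. All 3 put tumor 1 first, tumor 4 second, tumor 5 next and tumor 2 last.

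Pvalb, the parvalbumin gene, has 1 probe set, 1417653_at, which read 8.94 in tumor 1, 6.28 in tumor 2, 6.90 in tumor 4 and 6.29 in tumor 5. It lay above the floor throughout and 4.12-fold higher in tumor 1 than in tumor 4, the next. In tumors 2 and 5 its signals were nearly equal. Calb2 also has 1 probe set, 1451129_at, with 8.29 in tumor 1, 5.13 in tumor 2, 5.82 in tumor 4 and 5.59 in tumor 5. Tumor 1 was 5.54-fold above tumor 4, and tumor 2 lay just above the floor.

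The Purkinje cell proteins Pcp2, Pcp4 and Car8 followed with tumor 1 highest. Pcp2 1419085_at read 8.999 in tumor 1, 3.42 in tumor 2, 5.80 in tumor 4 and 3.58 in tumor 5. Tumor 1 was 9.18-fold above tumor 4, and the signals of tumors 2 and 5 lay below the floor. A second probe set of Pcp2, 1419084_a_at, read 7.10, 0.68, 3.64 and 1.68 in tumors 1, 2, 4 and 5, in the same order of tumors. The third, 1424944_at, read 3.14, 2.54, 1.89 and 1.77, below the floor in every tumor, and did not show the separation of the others.

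Pcp4 1460214_at, the only probe set of this gene, read 9.14 in tumor 1, 4.29 in tumor 2, 6.28 in tumor 4 and 5.88 in tumor 5. Tumor 1 was 7.25-fold above tumor 4. Unlike Calb1 and Pcp2, Pcp4 lay above the floor in tumor 5 as well. The brightest probe set of Car8, 1427482_a_at, read 10.03 in tumor 1, 7.08 in tumor 2, 7.23 in tumor 4 and 6.31 in tumor 5, above the floor in all of them. Tumor 1 was 6.97-fold above tumor 4, tumors 4 and 2 lay close together, and tumor 5 was last. The dimmer Car8 probe sets kept this order: 1457904_at read 7.12, 4.22, 4.41 and 3.60 and 1424958_at 5.68, 3.15, 3.52 and 2.79 in tumors 1, 2, 4 and 5.

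Both genes of GABA synthesis were highest in tumor 1, Gad1 above the floor there and Gad2 below it. Gad1 1416561_at read 8.997 in tumor 1, 5.18 in tumor 2, 6.40 in tumor 4 and 4.79 in tumor 5, with tumor 1 6.07-fold above tumor 4. The dimmer Gad1 probe set, 1416562_at, read 6.55, 3.25, 3.88 and 3.26 in tumors 1, 2, 4 and 5 and put tumor 1 at least 2.69-fold above the rest. Gad2 1421978_at read 4.17, 2.91, 2.04 and 2.29, and 1429589_at read 4.76, 1.26, 2.14 and 1.43. These Gad2 signals lay below the floor, where no fold is given.

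**Figure D1:**
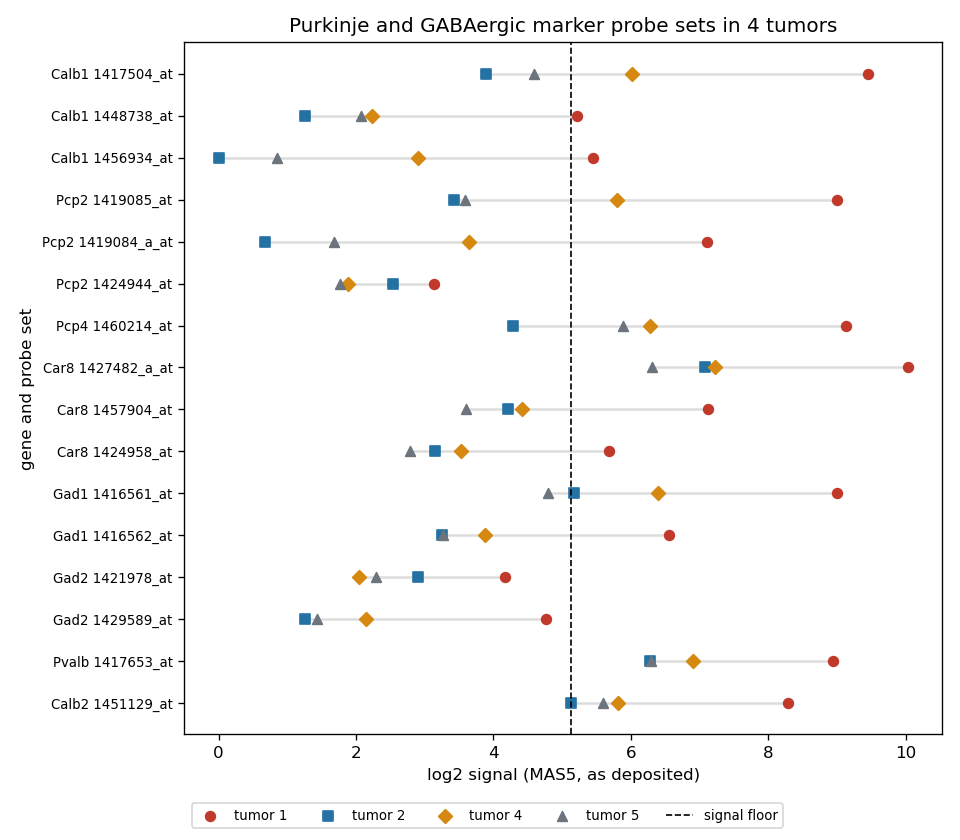
Log2 signal of the 16 member probe sets (rows) in tumors 1, 2, 4 and 5 (points), with the floor of 5.12 as a dashed line. Tumor 1 is the rightmost point in 16 of 16 rows, and 13 of its points lie right of the floor.

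Tumor 1 was thus the highest tumor in 16 of 16 member probe sets as deposited, 3 of them below the floor in every tumor, while it was the highest in 27.4% of all single-symbol probe sets. With signals raised to the floor, 10 of the 16, from 7 genes, were at least 2-fold higher in tumor 1 than in each of the other 3 tumors, and 1.18% of all single-symbol probe sets were. Gad2 was the measured gene with none. No member probe set was 2-fold lower in tumor 1 than in each other tumor (0.118% of all). The same count of higher and of lower probe sets was 0 for the members in tumors 2, 4 and 5, where the share of all probe sets was 0.0891% higher and 0.0243% lower in tumor 2, 0.0486% higher and 0% lower in tumor 4, and 0.081% higher and 0.0324% lower in tumor 5. Since tumor 1 was highest in 16 of 16, the 0 for higher member probe sets in tumors 2, 4 and 5 follows from that and is no separate result. These counts describe the arrays, and the list was chosen with earlier results on tumor 1 known.

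The test across the whole table called fewer of them. Each tumor was set against the other 3 with limma over 29243 probe sets, with the lone tumor assumed to vary like the rest, and a probe set was called at a Benjamini-Hochberg adjusted p under 0.05 and a difference of 2-fold or more. In tumor 1, 3 of the 16 member probe sets were called, all higher, where 0.127% of the table was called higher. Calb2 rose by 2.77 on the log2 scale over the mean of the other tumors (SE 0.30, adjusted p = 0.0427 in limma), the brightest Car8 probe set by 3.16 (SE 0.35, adjusted p = 0.0458 in limma) and Pvalb by 2.45 (SE 0.28, adjusted p = 0.0497 in limma). These are the 3 genes with all tumors above the floor.

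The wider gaps of Calb1, Gad1, Pcp2 and Pcp4 went with a wider spread among tumors 2, 4 and 5. The SD over those 3 tumors was 1.08 for Calb1, 1.33 for Pcp2, 1.06 for Pcp4 and 0.84 for Gad1, against 0.49 for Car8, 0.36 for Pvalb and 0.35 for Calb2 (log2 signal of the brightest probe set, n = 3). These SDs are of deposited values. For Calb1, Pcp2, Pcp4 and Gad1 they include signals below the floor, which are noisy on the log scale, and for Car8, Pvalb and Calb2 they do not. In limma the adjusted p was 0.0750 for Calb1, 0.0767 for Gad1, 0.106 for Pcp2 and 0.115 for Pcp4, so these did not pass. Of the 16 probe sets, 15 were higher in tumor 1 at an unadjusted limma p under 0.05, as were 6.25% of the table. The 3 calls were lost when tumor 2, tumor 4 or tumor 5 was left out, as was every other call of the table, with 0 of 29243 probe sets called each time. The differences without 1 of these tumors were 2.58 to 2.92 for Calb2, 2.88 to 3.34 for Car8 and 2.35 to 2.66 for Pvalb on the log2 scale. In limma without the intensity trend 0 probe sets of the table were called, and after quantile normalization 1 member was, Car8.

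In tumors 2, 4 and 5, limma called no member probe set, and it called 0% of the table in tumor 2, 0% in tumor 4 and 0% in tumor 5. In these fits tumor 1 is among the 3 tumors set against the lone one, which widens the spread of the members. For Calb1 1417504_at the SE was 0.72 for tumor 1 and 1.74, 2.04 and 1.86 for tumors 2, 4 and 5. The lack of member calls in tumors 2, 4 and 5 was therefore largely built in.

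**Figure D2:**
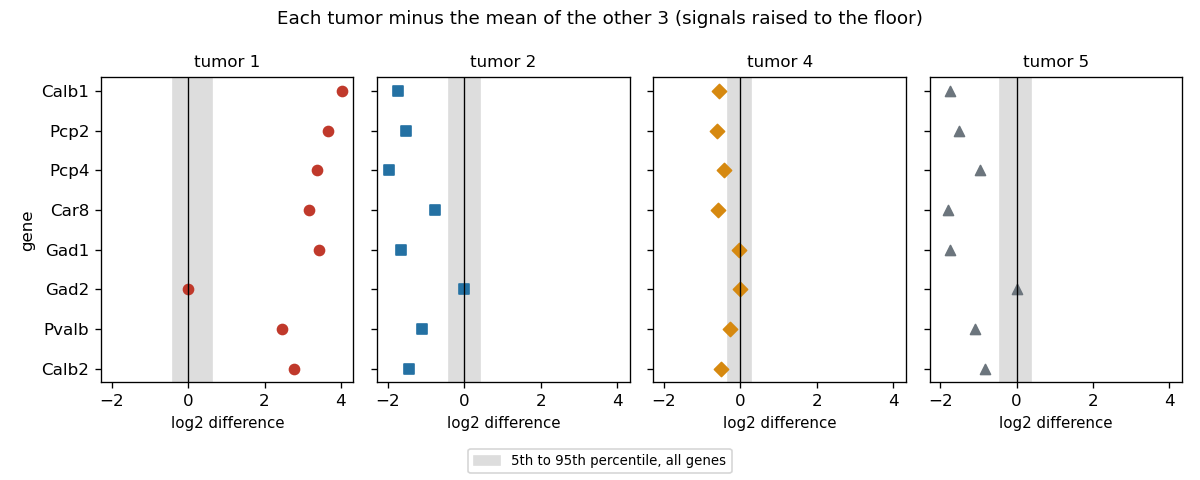
Log2 signal of each tumor minus the mean of the other 3, signals raised to the floor, for the brightest probe set of the 8 measured genes (points), 1 panel per tumor, with the 5th to 95th percentile of all genes in gray. In tumor 1 the 7 genes other than Gad2 lie between 2.45 and 4.03, right of the gray band.

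The median difference over the 8 genes was 3.27 in tumor 1, -1.48 in tumor 2, -0.48 in tumor 4 and -1.30 in tumor 5 on the log2 scale, with signals raised to the floor. The median over all genes was 0 in each tumor. The negative medians have tumor 1 among the tumors set against them. Without tumor 1 the medians were -0.39 in tumor 2, 0.65 in tumor 4 and -0.32 in tumor 5.

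Below tumor 1, the other tumors were not alike. Tumor 4 was second in 14 of 16 member probe sets, while it was second in 28.6% of all single-symbol probe sets in which tumor 1 was highest. Of the 10 member probe sets that lay 2-fold or more above every other tumor in tumor 1, tumor 4 was second in 10, and it was second in 52.1% of all 290 such probe sets. The exceptions among the 16, Pcp2 1424944_at and Gad2 1421978_at, were below the floor throughout, and tumor 2 was second there. Tumor 4 lay above the floor in 7 of the 16, and tumors 2 and 5 in 4 each. Of all probe sets in the table, 59.2% did in tumor 4, 60.8% in tumor 2 and 59.1% in tumor 5. In the other member probe sets the rank of tumor 4 was read among signals below the floor. Pcp2 1419084_a_at, Car8 1457904_at and Gad1 1416562_at, all among the 10, are such cases. Tumor 2 was lowest in 10 probe sets, tumor 5 in 5 and tumor 4 in 1.

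With signals raised to the floor, tumor 4 exceeded tumor 2 by 1.22 for Gad1, 1.16 for Pcp4, 0.89 for Calb1, 0.68 for Pcp2 and 0.15 for Car8 on the log2 scale. Pcp4, Calb1 and Pcp2 were below the floor in tumor 2, so their differences are taken against the floor. With tumor 1 left out and signals raised to the floor, 1 member probe set was 2-fold or more above both others in tumor 4, Gad1 1416561_at, where 0.081% of all probe sets were. Between tumors 5 and 2, with signals raised to the floor, Pcp4 read 0.76 higher in tumor 5 and the difference for Car8 was -0.77, both under 2-fold.

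**Figure D3:**
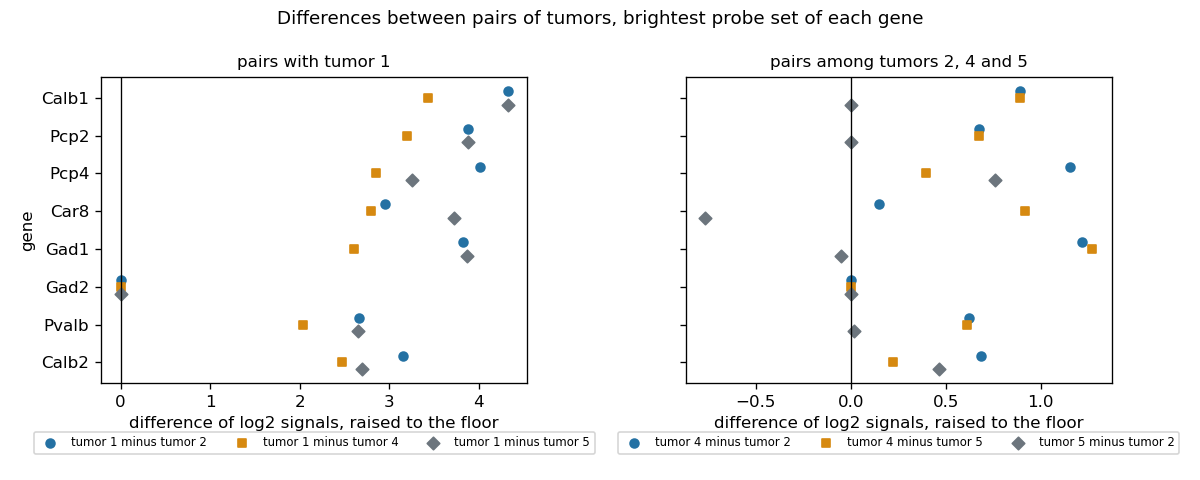
Differences of log2 signal, with signals raised to the floor, between pairs of tumors for the brightest probe set of each measured gene, with the pairs that hold tumor 1 on the left and the rest on the right. Tumor 1 exceeded every other tumor in 7 of 8 genes, by 2.04 (Pvalb against tumor 4) to 4.33 (Calb1 against tumors 2 and 5, both at the floor), Gad2 is at 0 in every pair, and tumor 5 minus tumor 2 ran from -0.77 for Car8 to 0.76 for Pcp4.

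Other genes of Purkinje cells were read from a further list, of which 11 of 16 were in the table. For this list and those below, the share to set beside the counts is that of all 13320 genes. With signals raised to the floor, 1.46% of them were 2-fold or more above every other tumor in tumor 1. Ppp1r17, a phosphatase inhibitor of Purkinje cells, read 6.79 in tumor 1 and 2.56 to 3.89 in the others. Slc1a6, the Purkinje cell glutamate transporter EAAT4, read 6.60 in tumor 1 and 1.38 to 4.94 in the others, so both lay above the floor in tumor 1 alone. Rora, the nuclear receptor named above, read 7.24 in tumor 1 and 5.71 to 5.87 in the others. These 3 of 11 were 2-fold or more above every other tumor, 0 were called by limma, and the list's median difference in tumor 1 was 0.79. Lhx5, a LIM homeobox factor of early Purkinje cells, lay below the floor in all tumors.

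Of the genes of GABA use, 4 of 6 were in the table, 0 were 2-fold above every other tumor in tumor 1, 0 were called by limma, and the median difference was 0.27, with 2 of the 4 positive. Slc32a1, the vesicular GABA transporter, read 5.80 in tumor 1 and 0, 2.85 and 0 in tumors 2, 4 and 5, above the floor in tumor 1 alone, so its difference of 0.67 with signals raised to the floor is taken against the floor, and it was 4.85 as deposited. Abat, the enzyme that breaks GABA down, read 8.10 in tumor 1 and 6.88 to 7.17 in the rest. Slc6a11, the GABA transporter GAT3 of astrocytes, read 6.74 in tumor 1 and 7.03 to 7.50 in the rest, the opposite side.

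Genes of the cerebellar GABAergic lineage had 6 of 12 in the table and a median difference of 0.19 in tumor 1, with 0 called by limma. The interneuron peptide gene Npy read 6.22 in tumor 1 and 2.58 to 4.98 in the rest and was the 1 gene 2-fold or more above every other tumor. Tfap2a, Tfap2b and Gata2, transcription factors known from GABAergic precursors, lay below the floor throughout, as did Dlx2, the 1 forebrain GABAergic gene of 7 in the table. Of the genes of IP3 signalling and calcium handling, 11 of 14 were in the table, with a median difference of 0.36, 0 called by limma and 1 gene 2-fold or more above every other tumor, the calmodulin-dependent kinase gene Camk4 (8.56 in tumor 1, 6.70 to 7.11 in the rest). Of these 11, 8 were positive in tumor 1. Hpca, a calcium-binding protein gene, lay on the other side, at 8.92 in tumor 1 and 9.03 to 9.98 in the rest. Itpr2, the relative of Itpr1, stayed under the floor in every tumor, and Pcp4l1, the relative of Pcp4, read 5.98 in tumor 1 and 5.01 to 6.17 in the rest.

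Markers of other cells moved with the members in tumor 1, and their part in the result was not tested. Of 11 mature granule and other neuron genes, 10 were in the table and 5 were 2-fold or more above every other tumor in tumor 1, with a median difference of 1.28, 1 call by limma (Snap25, a synaptic vesicle fusion protein gene) and a summed linear signal of 6763 in tumor 1 and 2770 to 3072 in the others. The granule cell genes Gabra6, a GABA receptor subunit, and Cbln3, a cerebellin, read 9.33 and 8.97 in tumor 1, against at most 5.14 and 5.65 in the others, while Grin2c and Slc17a7 lay below the floor throughout. Cbln1, a cerebellin of granule cells, read 9.93, 9.09, 9.32 and 9.18 in tumors 1, 2, 4 and 5. Of 8 myelin genes, 7 were in the table and 5 lay 2-fold or more above, with a median of 2.04, 0 called and a summed signal of 5339 in tumor 1 and 745.9 to 1615 in the rest. The measured members' own summed signal was 4151 in tumor 1, 336.2 in tumor 2, 612.0 in tumor 4 and 333.7 in tumor 5.

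Astrocyte and Bergmann glia genes, all 7 in the table, had a median of 0.65 in tumor 1, with 2 that lay 2-fold or more above, Gdf10 and Gjb6, 0 called and a summed signal of 4583 in tumor 1 and 3368 to 3610 in the rest. Of the 7 genes, 6 were positive in tumor 1, among them Hopx (0.99) and Slc1a3 (0.65). Gfap, the astrocyte filament gene, lay on the other side, at 6.55 in tumor 1 and 7.40 to 7.69 in the rest, and Aqp4 and Slc1a2 differed by 0.07 and 0.00 in tumor 1. For unipolar brush cells, which make calretinin, 3 of 5 genes were in the table, with a median of 0.77, 0 called and a summed signal of 939.1 in tumor 1 and 762.0 to 908.1 in the rest. Their defining factor gene Eomes read 5.90 in tumor 1 and 3.43 to 3.64 in the rest, where it lay below the floor. With signals raised to the floor its difference was 0.78. Otx2 read 9.18 in tumor 1 and 9.16 to 9.46 in the rest, and Plcb1 read 8.22 and 7.30 to 7.60. Of 4 genes of glutamatergic neurons of the cerebellar nuclei, Tbr1, Lhx9 and Meis2 lay below the floor in every tumor. These 3 set the median at 0. The other gene, Slc17a6, was highest in tumor 1, at 9.09 there and 7.78 to 8.61 in the rest, and was not 2-fold above every other tumor. The skeletal muscle genes in the table, Acta1 and Atp2a1, 2 of 7, lay below the floor in every tumor, with a summed signal of 33.3 in tumor 1 and 27.6 to 31.0 in the rest. With 2 of 7 genes measured, the part of muscle in the Pvalb signal was not tested.

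Genes of dividing cells, 5 of 6 in the table, had a median difference of -0.45 in tumor 1, 0 called and a summed signal of 3134 in tumor 1 and 4023 to 5104 in the rest. Genes of the choroid plexus, all 4 in the table, had a median of -0.19 in tumor 1 and of 1.12 in tumor 5, with a summed signal of 5102 in tumor 5. Ttr, Kl and Folr1 were highest in tumor 5, while Clic6 was highest in tumor 1, at 9.15 there and 8.73 in tumor 5. The ratio of 3' to 5' signal of the Gapdh control lay between 0.686 and 0.757 over the arrays, with tumor 1 at 0.757, and the B1 repeat control read 10.97 on array 1 and between 9.24 and 9.82 on the others. The part of these control readings in the members' levels was not tested. Chd7, the gene of the shared genotype, read 8.77 in tumor 1 and 8.48 to 8.66 in the rest at its brighter probe set.

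**Figure D4:**
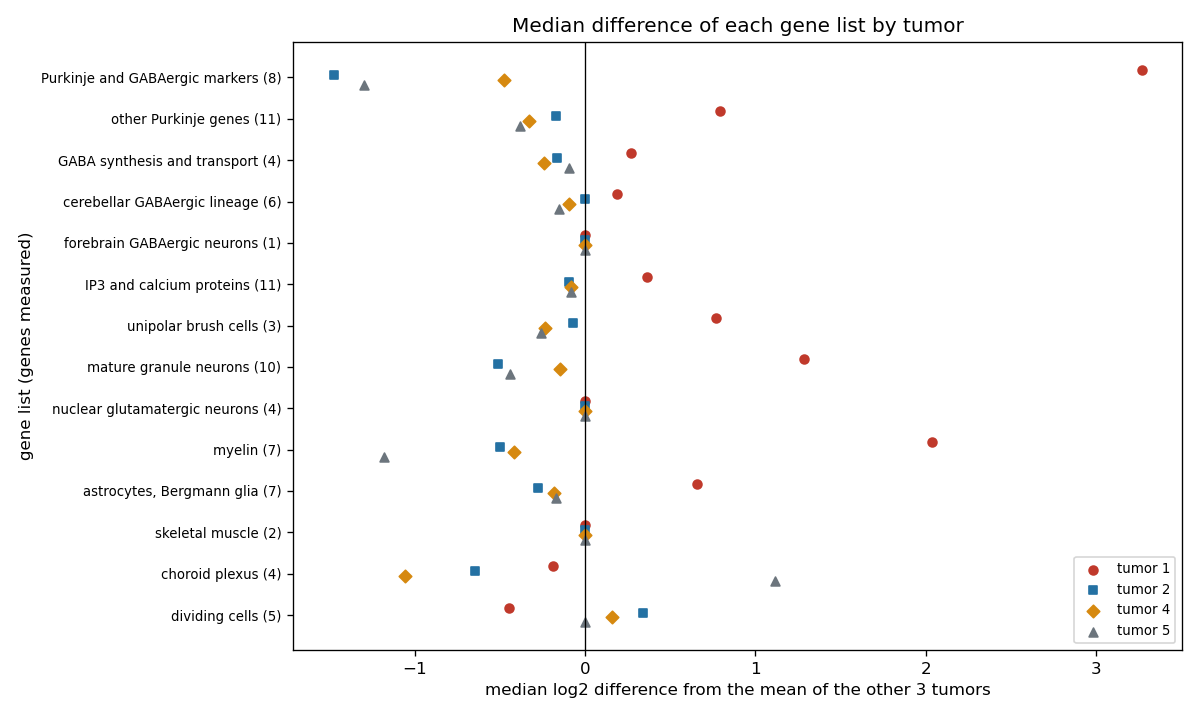
Median log2 difference of each gene list in each tumor from the mean of the other 3, signals raised to the floor, with the number of genes measured in brackets. Tumor 1 is farthest right for the Purkinje and GABAergic markers (3.27), then myelin (2.04) and mature granule neurons (1.28).

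Outside the list, the 5 genes whose pattern over the 4 tumors lay closest to the mean pattern of the 8 measured members were L1cam, Kcnc1, Chn2, Mal and Sphkap. Likeness was the Euclidean distance between log2 signals, raised to the floor and centred on each gene's mean, and was 0.277, 0.279, 0.294, 0.327 and 0.333 for them. The members' own distances ran from 0.341 for Calb2 to 1.03 for Calb1, and 2.53 for Gad2, which is flat at the floor. Kcnc1, a fast potassium channel gene, read 8.32 in tumor 1, 4.97 in tumor 2, 5.68 in tumor 4 and 5.44 in tumor 5. Sphkap, an anchoring protein of protein kinase A, read 9.53, 6.90, 7.32 and 6.72 in tumors 1, 2, 4 and 5. In the same order of tumors, L1cam read 8.99, 5.98, 6.45 and 5.66, and Mal read 8.27, 5.03, 5.43 and 4.52. Chn2, which is on the list of mature granule and other neuron genes, read 8.51, 4.93, 6.05 and 4.85. Over 4 tumors of which 1 stands apart, many genes can share such a shape.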

How the data were processed

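Total RNA of 4 tumors was read on 1 array each. Per the submitters' processing notes the deposited values came from MAS5, and they are log2 signals. No source used here states its version or the scaling target. Each log2 value, as deposited by the authors, was used without further normalization. The table holds 29304 probe sets, 61 of them controls. A single symbol was given for 24679, several for 647 and none for 3917. Promoter sequences came from RefSeq, and the motifs were searched in them here on both strands.

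The members and lists were chosen with earlier results of these data known, so no pattern shown earlier counts as independent support. The brightest probe set over the 4 tumors stood for its gene. Counts and list medians used signals raised to the floor. The limma test (limma 3.58.1 in R 4.3.3, lmFit and eBayes with an intensity trend) used every non-control probe set with no floor and no filter. Nothing says that the tumors come from separate litters, so p-values measure only the spread between these arrays, whose number limits the precision. Named genes were the members, Chd7, the 3 genes of each list with the largest difference of any tumor (examples of these are printed), those below the floor throughout, and the 5 nearest in pattern. Outside this rule, Snap25, Cbln1, Gfap, Aqp4, Slc1a2, Slc1a3, Kl, Lhx1 and Foxp2 were named after their values were seen. The limma script was tested on simulated data.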

Additional observations from a re-analysis of the deposited data

Results flagged for a closer look

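Of 53 probe sets examined, 4 had 1 tumor so far from the others that its gap to the nearest, as a share of the whole range, was above Dixon's critical value for a group of 4, and 0 of the 16 member probe sets did. About 1 in 20 groups not chosen by their values would be picked by chance. The 53 were the members, Chd7, genes of each list with the largest difference of any tumor, and the genes nearest in pattern. Many were thus chosen by their values, so the rate of 1 in 20 does not apply to them, and no conclusion is drawn from the count of 4. In each of the 4 the tumor was tumor 1. Rora read 7.24 there and 5.71 to 5.87 in the other tumors, with a gap of 0.895 of the range. Eomes read 5.90, against 3.43 to 3.64, with a gap of 0.915, and lay below the floor in those other tumors. Gdf10, a growth factor gene of Bergmann glia, read 7.46, against 5.51 to 5.77, with a gap of 0.871. Aurka, a mitotic kinase gene, lay on the lower side, at 8.17 in tumor 1 and 8.81 to 8.89 in the other tumors, with a gap of 0.887.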

How the results depend on the processing

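The count of member probe sets at least 2-fold higher in tumor 1 than in every other tumor, 10, was 13 with the floor at the 25th percentile, 15 with no floor, 9 with the floor at the 50th percentile and 9 at 3-fold, and 10 without each other tumor. For tumor 2, the count of lower probe sets was 1 with the floor at the 25th percentile and 1 with no floor, and 0 to 2 when a tumor was left out. Leaving out a tumor gave 0 to 1 higher probe sets in tumor 4 and 0 to 1 lower in tumor 5. The median difference in tumor 1 was 2.17 with the mean over the probe sets of a gene, which brings in dim ones, and 3.04 to 3.48 when another tumor was left out. The limma count in tumor 1, 3, was 5 with the mean filter, which left 6 of the 16 probe sets (2 by the mean over tumors 2, 4 and 5, so most passed through tumor 1 and the count is no support), 7 with the floor and mean filter together, 12 with a pseudocount of 32, 1 after quantile normalization, 0 without the intensity trend and 0 without each of tumors 2, 4 and 5. The floor and mean filter together also selects on a mean that includes tumor 1, so that count is no support either. With the floor and no mean filter, probe sets at the floor in all tumors were left out. The members called were then Gad1 1416562_at, Pcp2 1419084_a_at and Car8 1457904_at, and none of those called in the main fit. Each lay below the floor in tumors 2, 4 and 5. Raising signals to the floor leaves them no spread there, so these calls are no support. Over all these settings the adjusted p in limma ran from 0.00771 to 0.343 for Calb2, 0.00826 to 0.343 for Car8 1427482_a_at and 0.00977 to 0.257 for Pvalb. Over the whole table the limma count in tumor 1 was 43, and 286 with the pseudocount, 167 with the floor, 123 with the mean filter, 95 with both and 0 without the trend. No paired analysis was possible because all tumors form 1 group.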

Other observations

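Among the 11 further Purkinje cell genes in the table, tumor 1 was highest in 9 as deposited, and 7 genes lay above the floor in all tumors. Tumor 1 was the highest in 27.4% of all single-symbol probe sets, counted by probe set and not by gene. The 2 in which tumor 1 was not highest, Lhx1 and Foxp2, were named after their values were seen. Lhx1, a LIM homeobox factor of early Purkinje cells, read 8.79 in tumor 1, 9.03 in tumor 2, 8.63 in tumor 4 and 9.01 in tumor 5, a range narrower than that of any member gene. Foxp2, a forkhead factor of Purkinje cells, read 7.51, 7.63, 6.65 and 5.86 in tumors 1, 2, 4 and 5, with tumor 2 and not tumor 1 highest. Both are also made by other neurons, and the cells behind these signals are not known here.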
